A study of Mus musculus with 5 samples.

Results

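Inhibitory interneurons of the dentate gyrus (DG) were followed here through 9 genes that mark their identity, out of the 23420 gene symbols with a value in the files. The genes were Gad1, Gad2, Slc32a1, Pvalb, Nos1, Reln, Lhx6, Dlx1 and Dlx6, taken by symbol as a list of known interneuron genes. All 9 passed the filter on low values (a mean of 5 or more on the regularized log scale), which left 13550 expressed genes. The mice were wild-type CD1 males, an outbred strain, labelled as 4 months old, and each lived for 4 weeks in its environment. LD mice lived alone with a locked disk, RUN mice lived alone with a running disk, and CE mice shared a cage in groups with a locked disk and tunnels. The LD, CE and RUN libraries each pooled DG RNA of 8 mice. L-RUN and H-RUN each pooled RNA of 4 mice, those that ran the least and the most among the 8 RUN mice, so RUN holds the same mice as both. Each group is thus 1 library with no replicate, differences between mice are averaged within a pool, and no p-value can be given.

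GABAergic interneurons are a small share of DG neurons and set how many granule cells fire. They make GABA from glutamate with the enzymes GAD67 (Gad1) and GAD65 (Gad2), and load it into vesicles with the transporter VGAT (Slc32a1). Their precursors in the ventral forebrain need the homeodomain factors of the Dlx family, and those from the medial ganglionic eminence also need Lhx6. In the adult, subtypes are told apart by products such as the calcium buffer parvalbumin (Pvalb) in basket and axo-axonic cells, neuronal nitric oxide synthase (Nos1) in ivy and neurogliaform cells and in projecting cells that also hold somatostatin, and the secreted protein reelin (Reln) in further cells of the molecular layer and hilus. Several of these genes are not exclusive to interneurons. Reln is also made by Cajal-Retzius cells at the hippocampal fissure, and granule cells hold some Gad1. In bulk RNA, fewer cells of a type and less RNA per cell cannot be told apart.

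The promoter windows of Nos1, Reln and Gad1 are shown because the results below turn on the contrast between them: Nos1 was far lower in the runners, Reln was a little lower, and Gad1 was level in all groups. Each window runs from 250 bases before to 50 bases after an annotated RefSeq start on GRCm38.p6, the build that mm10 names, and is written 5′ to 3′ along the gene. Capitals mark CG dinucleotides, which read the same on both strands. The Nos1 window (chr5:117866589-117866888, plus strand) lies at 1 of the starts of a gene that GENCODE draws from 117781032 to 117958840. The Reln window is chr5:22344656-22344955 on the minus strand, and the Gad1 window is chr2:70561879-70562178 on the plus strand. The Gad1 window likewise lies inside the span that GENCODE draws for its gene, 70553072 to 70602014.
Nos1: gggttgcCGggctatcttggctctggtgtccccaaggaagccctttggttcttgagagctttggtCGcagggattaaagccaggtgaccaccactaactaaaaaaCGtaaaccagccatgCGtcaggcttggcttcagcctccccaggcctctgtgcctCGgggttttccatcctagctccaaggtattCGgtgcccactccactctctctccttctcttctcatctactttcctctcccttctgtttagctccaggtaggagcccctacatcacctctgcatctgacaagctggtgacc
Reln: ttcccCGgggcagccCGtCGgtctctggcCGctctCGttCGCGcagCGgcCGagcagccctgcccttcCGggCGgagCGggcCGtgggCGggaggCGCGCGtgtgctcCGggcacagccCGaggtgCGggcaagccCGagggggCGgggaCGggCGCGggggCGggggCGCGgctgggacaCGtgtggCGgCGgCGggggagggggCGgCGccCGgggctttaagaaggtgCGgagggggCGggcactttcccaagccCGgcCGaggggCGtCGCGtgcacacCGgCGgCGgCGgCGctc
Gad1: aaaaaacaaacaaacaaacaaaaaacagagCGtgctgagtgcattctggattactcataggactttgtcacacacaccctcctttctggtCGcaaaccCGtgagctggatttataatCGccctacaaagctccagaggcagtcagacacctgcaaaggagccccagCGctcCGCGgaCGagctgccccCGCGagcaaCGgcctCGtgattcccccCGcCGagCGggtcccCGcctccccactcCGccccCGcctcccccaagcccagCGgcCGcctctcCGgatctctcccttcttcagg
The Nos1 window holds 6 CG dinucleotides, the Gad1 window 21 and the Reln window 47. Among 32851 promoter windows of this length, the median is 7, and 98.8% hold no more than Reln. The palindrome TAATTA, a core recognised by many homeodomain factors, is in 0 of the 11 windows found for 8 of the members and in 5.29% of all windows. RefSeq windows were matched by symbol for every member but Dlx6. Whether the content of a window is related to the values of its gene was not tested.

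Levels between genes were compared as the regularized log value less log2 of the longest annotated transcript in kb, a level per length. Gad1 was highest (11.44 on this log2 scale, mean of the 5 libraries) and above 96.2% of expressed genes, and Gad2 stood at 21.8% of Gad1 on the linear scale. Pvalb (8.66) and Slc32a1 (8.64) came next and differed by 0.02, less than the range of either over the libraries. Lhx6 (6.99) and Reln (6.90) formed another pair closer together than their own ranges. Dlx1 (6.19) and Nos1 (5.60) followed, with a gap smaller than the range of Nos1, and Dlx6 (4.36) was lowest. Regularized log values are shrunken towards the mean of a gene, most of all for genes with few reads such as Dlx6, so these levels are approximate.

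**Figure D1:**
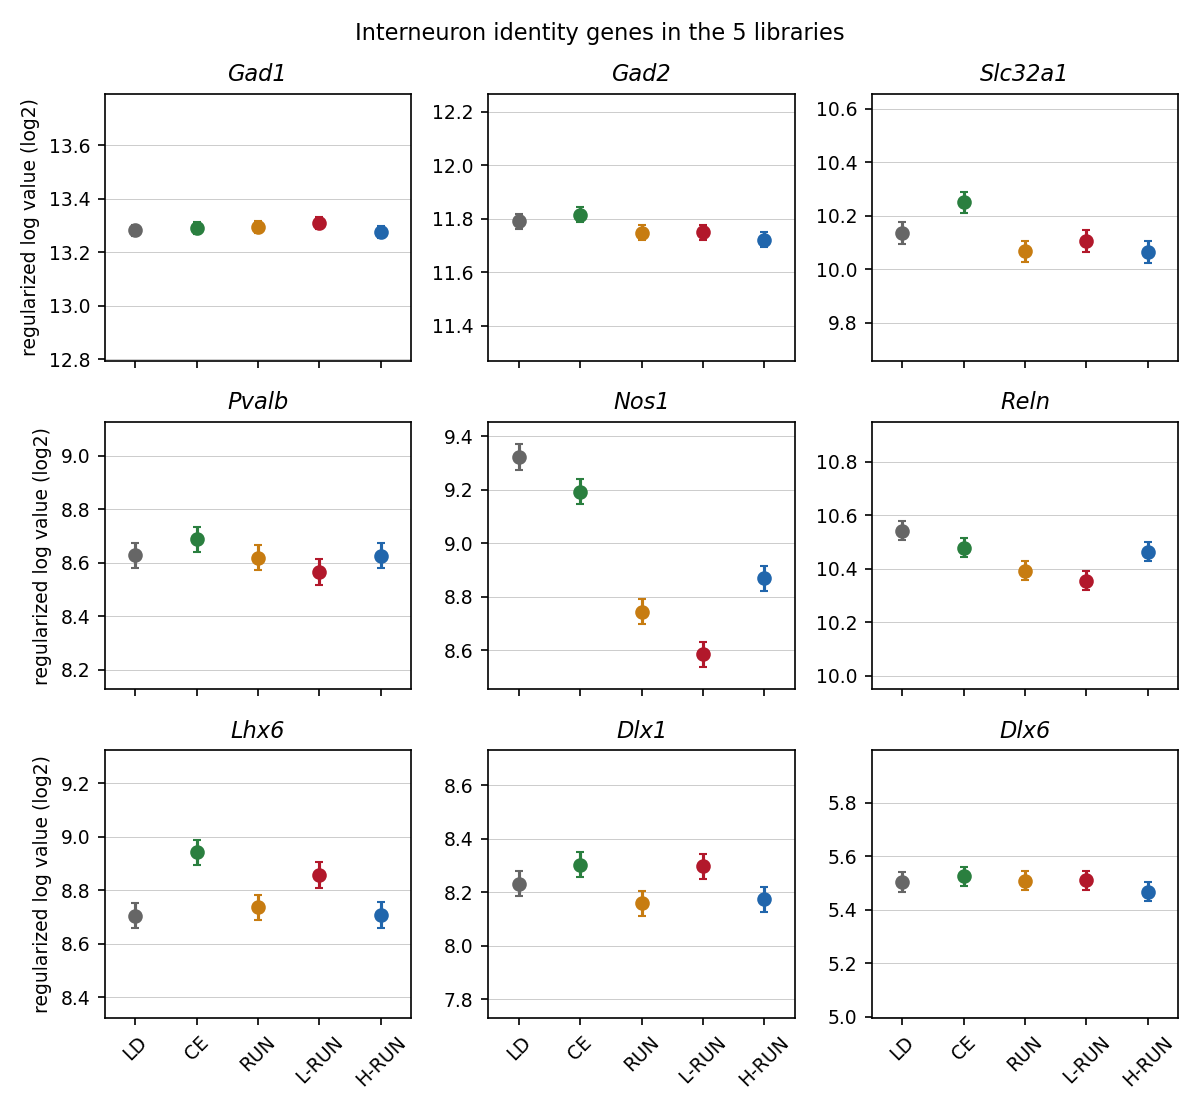
Regularized log value (y axis, log2, 1 unit high in every panel) of each of the 9 genes in the 5 libraries (x axis), 1 point per library, with bars of 1 technical SD of a difference between libraries on either side. Nos1 spans 0.74 from L-RUN to LD, while Gad1 spans 0.03.

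The enzymes and the transporter that define the GABAergic phenotype held nearly the same level in all groups. Gad1 (chromosome 2, 70553072 to 70602014 on GRCm38, as are the positions that follow) stood at 13.28 in LD on the regularized log scale, 13.28 in H-RUN, 13.29 in RUN, 13.31 in L-RUN and 13.29 in CE. No library stood apart, and the largest difference from LD was 0.03, against a technical SD of 0.022. The technical SD is the noise of a difference between a pair of libraries, read from how far RUN departs, across genes of similar level, from an equal blend computed from its low and high runners, and it holds nothing of the variation between mice. Gad2 (chromosome 2, 22622205 to 22693874) was at 11.79 in LD, 11.72 in H-RUN, 11.75 in RUN, 11.75 in L-RUN and 11.81 in CE. Its lowest library, H-RUN, was 0.07 under LD, which 37.2% of expressed genes matched or passed in size. Slc32a1 (chromosome 2, 158610767 to 158615748) was at 10.14 in LD, 10.07 in H-RUN, 10.07 in RUN, 10.11 in L-RUN and 10.25 in CE. CE was thus its highest library, 0.11 above LD or 2.8 technical SDs, while the running pools all lay below LD.

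A gene was called past the threshold at a difference from LD of at least 0.3 in size, the cut the study used. Of the 9 members, 0 were past it in CE, where 0.332% of expressed genes were higher and 0.266% lower by this much. In RUN, 0 were higher and 1 was lower, against 0.362% and 0.952% of expressed genes. In L-RUN, 0 were higher and 1 was lower, against 0.797% and 2.33%, and in H-RUN 0 were higher and 1 was lower, against 0.354% and 0.472%. The member that was lower was Nos1 in each case. The other 8 members never passed the threshold, and 5 of the 9 stayed within 0.1 of LD in every group. Over the 9 members, the median difference from LD was 0.02 in CE, -0.06 in H-RUN, -0.04 in RUN and -0.03 in L-RUN, while the medians over all expressed genes lay within 0.01 of 0. In 11 of the 36 pairs of member and group the difference was at least 2 technical SDs in size, a share of 30.6%, and across expressed genes the share was 41.3%. Of the 11 pairs, 4 were of Nos1, 3 of Reln and 2 of Lhx6. The pairs are not independent, since RUN holds the mice of L-RUN and H-RUN, so nothing is read from the gap between these shares. All 4 comparisons share the LD library.

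**Figure D2:**
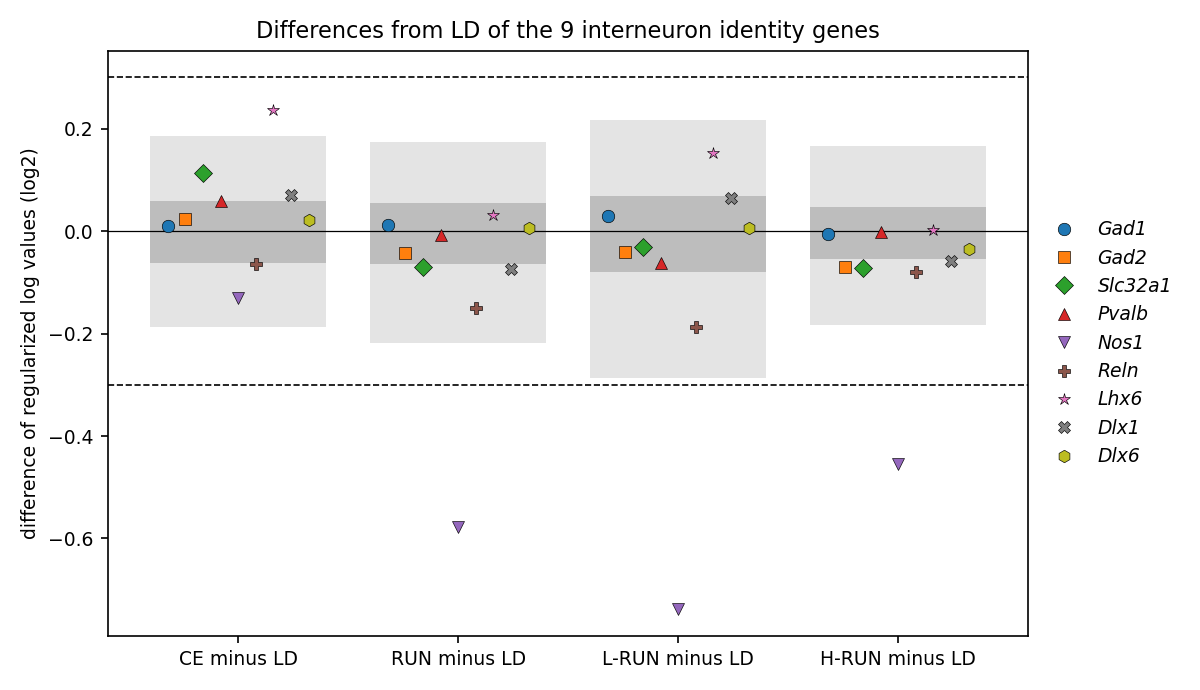
Difference from LD (y axis, log2) of the 9 genes in CE, RUN, L-RUN and H-RUN (x axis), with grey boxes for the middle 50% and the middle 95% of all 13550 expressed genes and dashed lines at the threshold of 0.3. Nos1 lies below the lower line in the 3 running libraries, and the other 8 genes stay between the lines.

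Nos1 (chromosome 5, 117781032 to 117958840), the synthase that makes nitric oxide in neurons, was lower in every running library than in LD. On the same scale it stood at 9.32 in LD, 8.87 in H-RUN, 8.74 in RUN, 8.58 in L-RUN and 9.19 in CE. Both non-running libraries were above the 3 running libraries. The difference from LD was -0.45 in H-RUN, -0.58 in RUN and -0.74 in L-RUN, which left 73.0% of the LD level in H-RUN, 67.0% in RUN and 60.0% in L-RUN. The differences are 9.6 (H-RUN), 12.2 (RUN) and 15.6 (L-RUN) times the technical SD of 0.047 for genes of this level. The difference from LD in RUN was the lowest among all 13550 expressed genes, and the differences in L-RUN and H-RUN both ranked 7 from the lowest. In CE the difference was -0.13, or 2.75 technical SDs, a size that 15.5% of expressed genes reached. The separation did not rest on LD alone, since CE was 0.45 above RUN.

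L-RUN and H-RUN hold different mice, and their difference does not use LD. Nos1 was 0.28 lower in L-RUN than in H-RUN, 6.0 technical SDs, and 1.87% of expressed genes differed as much. This is just under the threshold, which 0 of the 9 members and 1.54% of expressed genes passed in this comparison. The RUN value of Nos1 departed by 0.01 from the blend computed from the same mice. Over the 9 members this departure was at most 0.08, for Dlx1, and for 8 of them the RUN value fell within the interval set by the low and high runners.

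The expressed genes whose 4 differences from LD lay nearest to those of Nos1, by Euclidean distance, were Kcnq3 (0.18), a subunit of the neuronal M-type potassium channel, Frrs1l (0.18), which takes part in the assembly of AMPA receptors, and Parm1 (0.19). None of these is a marker of interneurons on the lists used here. In L-RUN the difference from LD was -0.69 for Kcnq3, -0.66 for Frrs1l and -0.57 for Parm1, whose longest transcripts have 11824, 6817 and 5068 bases. Nos1ap, which encodes an adaptor protein that binds the synthase, was at 9.95 in LD, 9.83 in H-RUN, 9.70 in RUN, 9.58 in L-RUN and 10.02 in CE. It too was highest in the libraries without running, with a difference of -0.37 in L-RUN, and it was named after its values were seen.

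Genes with long transcripts were lower than LD in all 4 groups, most of all in L-RUN, and the members differ widely in length. Among expressed genes in the top decile of transcript length (6990 bases or more), the median difference from LD was -0.12 in L-RUN, -0.09 in RUN, -0.06 in H-RUN and -0.06 in CE, and 10.3% of them were past the threshold downwards in L-RUN. Nos1, with a longest transcript of 10123 bases, and Reln, with 11699 bases, are both in this decile. A smooth trend of the difference on length had a value of -0.13 in L-RUN, -0.10 in RUN and -0.06 in H-RUN at the length of Nos1. With the trend removed, Nos1 was still -0.61 in L-RUN, -0.48 in RUN and -0.39 in H-RUN, past the threshold in all 3, and -0.06 in CE. What made the trend with length was not tested.

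**Figure D3:**
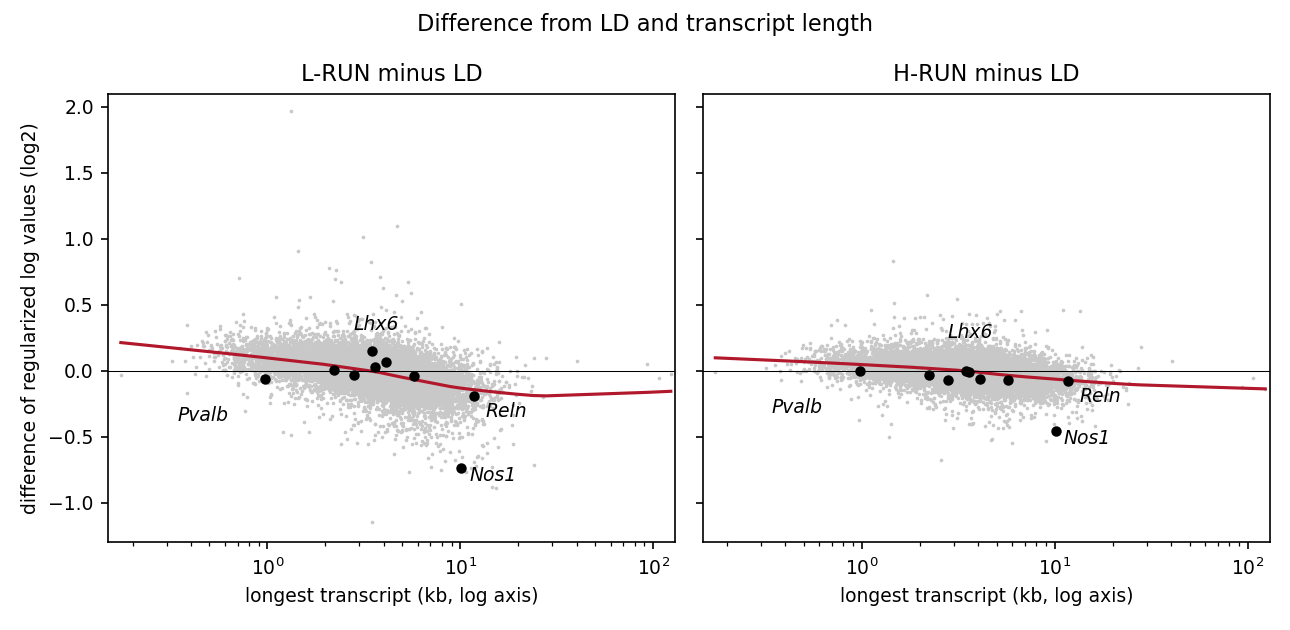
Difference from LD (y axis, log2) against the length of the longest transcript (x axis, kb, log scale) in L-RUN and H-RUN, with grey points for expressed genes, a red lowess line for the trend and black points for the 9 members, 4 of them named. Reln lies close to the line in both panels, and Nos1 lies 0.61 below it in L-RUN and 0.39 below it in H-RUN.

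Reln (chromosome 5, 21884454 to 22344702), a secreted glycoprotein that guides neuron position and acts at adult synapses, was at 10.54 in LD, 10.46 in H-RUN, 10.39 in RUN, 10.36 in L-RUN and 10.48 in CE. LD was its highest library and L-RUN its lowest. The differences of -0.15 in RUN and -0.19 in L-RUN were 4.1 and 5.2 technical SDs, but 11.3% and 11.6% of expressed genes were at least as far from LD. With the length trend removed, the difference was -0.04 in both. Trp73 and Ebf3, the expressed markers of Cajal-Retzius cells among 4 listed (Lhx1 and Lhx5 had means under 5), differed from LD by at most 0.10 in any library, and the log2 of the summed level of the list was between 7.66 and 7.76. Pvalb (chromosome 15, 78191114 to 78206400) was at 8.63 in LD, 8.63 in H-RUN, 8.62 in RUN, 8.57 in L-RUN and 8.69 in CE. No library was more than 1.31 technical SDs from LD. Its longest transcript is short (977 bases), where the trend with length ran upwards, so that removing the trend gave -0.16 in L-RUN, still under the threshold.

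Among the transcription factors, Lhx6 was higher in CE than in LD. Lhx6 (chromosome 2, 36081953 to 36105408) was at 8.70 in LD, 8.71 in H-RUN, 8.74 in RUN, 8.86 in L-RUN and 8.94 in CE. CE and L-RUN were the high libraries, and LD and H-RUN differed by 0.002. The difference of 0.24 in CE was 5.0 technical SDs, it did not reach the threshold, and 1.82% of expressed genes were at least as far from LD. In L-RUN the difference was 0.15, with 19.0% of expressed genes as far, and L-RUN was 0.15 above H-RUN. The RUN value was 0.05 under the blend of its low and high runners, about 1 technical SD.

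Dlx1 (chromosome 2, 71528113 to 71533981) was at 8.23 in LD, 8.17 in H-RUN, 8.16 in RUN, 8.30 in L-RUN and 8.30 in CE. CE and L-RUN were again the high libraries, but no difference from LD reached 2 technical SDs. Dlx6 (chromosome 6, 6863334 to 6868568) was at 5.50 in LD, 5.47 in H-RUN, 5.51 in RUN, 5.51 in L-RUN and 5.52 in CE. It sits in the lowest decile of expression, where 0.295% of genes were past the threshold in L-RUN against 3.84% in the third decile, so shrinkage left little room for Dlx6 to differ. Dlx1 and Dlx6 overlap antisense genes on the other strand, and so do Gad1, Slc32a1, Nos1 and Reln, whose antisense partners were not analysed here. Counting is not stated to have used strand. Where exons of a gene and its antisense partner overlap, their reads may thus not be told apart. The overlaps named are of whole gene spans, and overlap of exons was not checked. Dlx1as was at 8.43 in LD and between 8.32 and 8.50 elsewhere. Dlx6as1, the name in the files for Dlx6os1, was at 9.09 in LD, 8.87 in H-RUN, 8.83 in RUN, 8.91 in L-RUN and 8.82 in CE, so that LD was its highest library while Dlx6 was level.

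A wider list of 39 further interneuron genes, chosen for their role, had 36 expressed genes. In CE, 1 of the 36 was higher by 0.3 or more and 0 lower. In L-RUN, 2 were higher and 0 lower, and in RUN and H-RUN 0 passed the threshold in either direction. Among all expressed genes the share higher was 0.332% in CE and 0.797% in L-RUN, as given above. Its median difference from LD was 0.05 in CE, -0.05 in H-RUN, -0.02 in RUN and -0.05 in L-RUN. The genes past the threshold encode neuropeptides of hilar interneurons. Sst (somatostatin) was at 11.37 in LD, 11.42 in H-RUN, 11.57 in RUN, 11.68 in L-RUN and 11.71 in CE, which put it 0.34 above LD in CE and 0.30 in L-RUN. Npy (neuropeptide Y) was at 10.12 in LD, 10.12 in H-RUN, 10.27 in RUN, 10.44 in L-RUN and 10.13 in CE, and only L-RUN was past the threshold, by 0.32. Both transcripts are under 1 kb long, and with the length trend removed neither passed the threshold (Sst 0.29 in CE and 0.18 in L-RUN, Npy 0.18 in L-RUN), while Nr2f2 did in L-RUN (0.31).

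Other subtype genes differed less from LD. Vip, a peptide of interneurons that target other interneurons, was at most 0.16 from LD, in H-RUN. Cck, the peptide of a class of basket cells, was at most 0.08 from LD. Its longest transcript has 799 bases. With the length trend removed, Cck was at -0.17 in RUN, -0.17 in L-RUN, -0.10 in H-RUN and 0.01 in CE. Calb2 (calretinin), which mossy cells and immature granule cells also express, was higher in every group than in LD, by 0.15 in CE, 0.15 in H-RUN, 0.23 in RUN and 0.27 in L-RUN. Dlx2 and Dlx5, the neighbours of Dlx1 and Dlx6 in their gene pairs, stayed within 0.12 of LD.

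**Figure D4:**
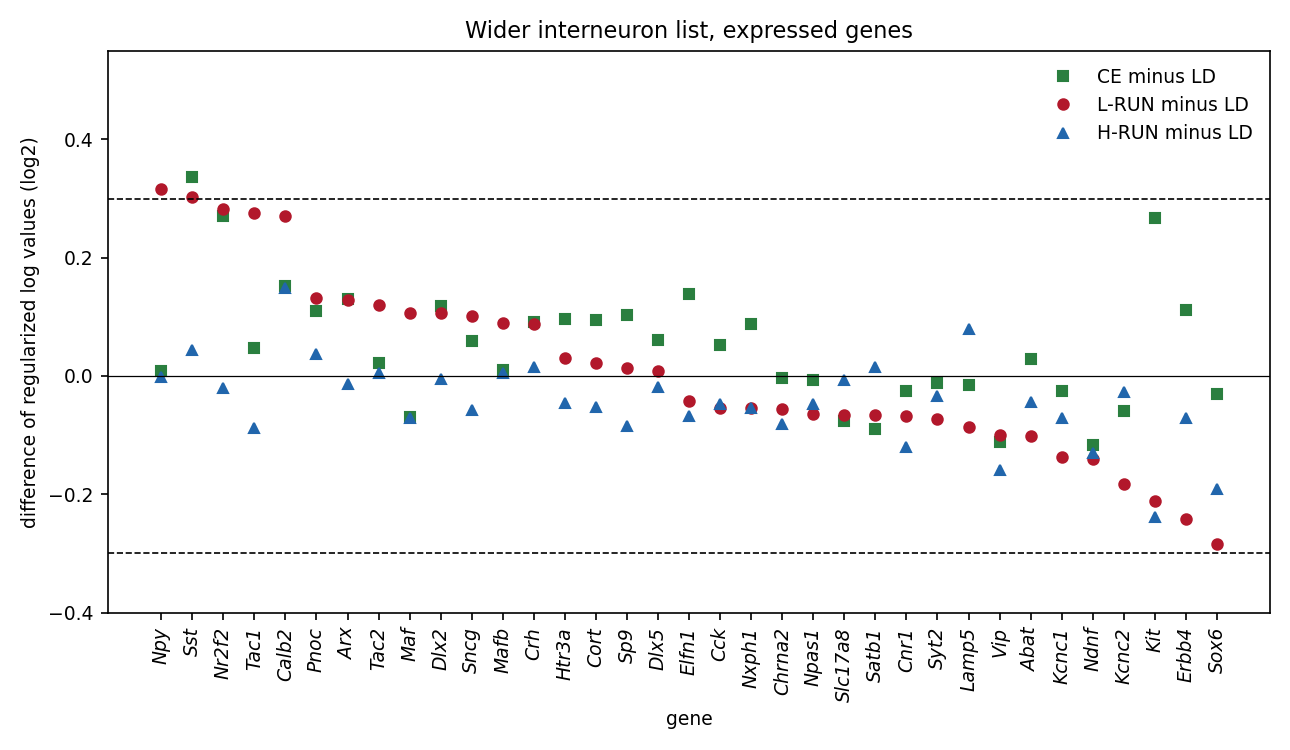
Difference from LD (y axis, log2) of the expressed genes of the wider interneuron list, 1 left out (x axis, ordered by L-RUN) in CE, L-RUN and H-RUN, with dashed lines at the threshold of 0.3. Sst is past the line in CE and L-RUN and Npy in L-RUN, and no gene shown is below -0.3.

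Markers of tissue next to the DG also differed between the libraries. Of 8 markers of leptomeninges, all expressed and none at 0, 4 were higher by 0.3 or more in CE, 5 in RUN and 6 in L-RUN, while in H-RUN 0 were higher and 1 (Dcn) was lower. The largest of these differences, named after the values were seen, was 1.97 for Ptgds in L-RUN. The log2 of their summed level was 12.44 in LD, 12.31 in H-RUN, 13.42 in RUN, 13.99 in L-RUN and 12.71 in CE. L-RUN and RUN were their highest libraries, while Lhx6 and Sst were highest in CE and L-RUN and Npy was highest in L-RUN, and the part of such tissue in these values was not tested. Of 8 markers of CA pyramidal cells, all expressed and none at 0, 1 was higher in CE (Fibcd1), 1 was lower in RUN (Fibcd1), 3 were lower in L-RUN (Fibcd1, Pou3f1 and Wfs1), and in H-RUN 1 was higher (Bok) and 1 lower (Fibcd1). Fibcd1 ran against most of its list in CE, where 6 of the 8 were below LD, and in H-RUN, where 5 were above. In RUN 6 of the 8 were below LD, and in L-RUN 7 were. The log2 of the summed level of the 8 markers was 12.99 in LD, 13.00 in H-RUN, 12.89 in RUN, 12.74 in L-RUN and 12.94 in CE. L-RUN was their lowest library, as it was for Nos1. H-RUN was their highest library, while the difference of Nos1 from LD there was -0.45. The part of such tissue in the Nos1 values was not tested. Of 8 granule cell markers, 1 was lower by 0.3 or more in L-RUN (Prox1) and 1 higher by this much in each running library (C1ql2). Both were named after their values were seen. Most of that list lay below LD and did not follow C1ql2. L-RUN and RUN each had 6 of the 8 markers below LD, while H-RUN had 5 and CE had 7. The log2 summed level of the 8 markers was between 15.12 in CE and 15.25 in LD. Of 6 choroid plexus markers 2 were expressed, and Ttr was 0.62 above LD in CE, with no marker past the threshold elsewhere. The other expressed marker did not follow Ttr and was 0.03 above LD in CE. Of 4 thalamic markers, Prkcd was at -0.40 in CE and -0.37 in L-RUN, 2 libraries in which Lhx6 and Sst were high. The list as a whole did not follow Prkcd. In each of these libraries 2 of the 4 were above LD and 2 below, with medians of -0.006 in CE and 0.008 in L-RUN. All 6 oligodendrocyte markers were below LD in CE, RUN and L-RUN, with medians of -0.07, -0.10 and -0.20. In H-RUN 3 were above LD and 3 below, and none was past the threshold in any group. Among the lists for astrocytes, endothelium and neurons in general, Slc1a3 (-0.30), Flt1 (-0.43) and Camk2a (-0.31) were past the threshold in L-RUN and Flt1 in RUN (-0.31), and no microglial or mossy cell marker was in any group. These genes too were named after their values were seen. Of the 4 endothelial markers, 3 were above LD in RUN and 2 in L-RUN, so most of that list did not follow Flt1. In L-RUN, 5 of 6 astrocyte markers and 4 of 5 markers of neurons in general were below LD. The part of these cells in the members' values was not tested.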

How the data were processed

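Poly(A) RNA of DG pools was sequenced, 1 library for each of 5 groups. According to the methods and the submitters' processing notes, which also list CASAVA 1.8.2, the authors mapped to mm10 with TopHat2 2.0.10, counted reads on RefSeq genes with HTSeq, and deposited regularized log values from DESeq2 1.10.1, on the log2 scale, with all 5 libraries normalized together. Counts are not used here, the depth is unknown, and no precision from counting can be given. Values were used as deposited. Shrinkage makes differences of weakly expressed genes too small.

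Differences were taken between libraries, and the threshold was 0.3. The technical SD was taken by decile of expression from the residual of RUN against the mixture of L-RUN and H-RUN, with a factor of 1.5 for the pool and 2 for a difference. Transcript lengths and positions came from GENCODE M21 (GRCm38), with 99.3% of expressed genes matched, and trends from lowess (fraction 0.3). No test was run, since no group has a replicate. The scripts were tested on simulated data. Alternatives were thresholds of 0.2 and 0.4, other filters on the mean, centring, quantile normalization, removal of the length trend, a baseline averaging LD and CE, and a blend of log values. Named were all members, 8 fixed genes of the wider list (1 of which is not reported here) and those past the threshold, the 3 nearest patterns of a member past the threshold, and overlapping antisense genes. The members, lists and alternatives were chosen with earlier results of these data known. Software versions were numpy 2.4.6, pandas 2.3.3, statsmodels 0.14.6 and matplotlib 3.10.9, under python 3.11.15.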

Additional observations from a re-analysis of the deposited data

How the results depend on the processing

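Nos1 kept its direction and its side of the threshold against LD under every alternative run: between -0.58 and -0.48 in RUN, -0.75 and -0.61 in L-RUN, and -0.46 and -0.39 in H-RUN. The counts of members past the threshold differed at a threshold of 0.2 alone, which gave 1 in CE (Lhx6) and 1 for L-RUN minus H-RUN (Nos1). Against a baseline averaging LD and CE, the median of the members in RUN was -0.0867. In the wider list, a threshold of 0.4 left 0 genes in CE and 0 in L-RUN, and 0.2 gave 3 in CE, 1 in H-RUN, 2 in RUN and 8 in L-RUN. Removing the length trend left 0 genes in CE and 1 in L-RUN (Nr2f2, 0.31, in place of Sst and Npy), quantile normalization gave 4 in L-RUN, and the baseline of LD and CE gave 1 in RUN and 1 in H-RUN. Its median in L-RUN became -0.0108 without the length trend and 0.00785 without the filter on the mean. Of the single differences of members, 33 moved by more than 1 technical SD, 20 of them on removing the length trend, and no value past the threshold changed sign. The technical SD, recomputed with a blend of log values and with a minimum mean of 7, was 0.0365 and 0.0363. No library could be left out in turn, since each group has 1. No paired analysis was possible because each group is a single pooled library.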

Other observations

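Further genes of the wider interneuron list, chosen after their values were seen, differed between libraries without reaching the threshold against LD in the values as deposited. Kit, a receptor tyrosine kinase found in some interneurons, was at 10.30 in LD, 10.06 in H-RUN, 10.10 in RUN, 10.09 in L-RUN and 10.57 in CE. CE was thus its highest library, and the 3 running libraries lay together below LD. Nr2f2 (COUP-TFII), a nuclear receptor of interneurons from the caudal ganglionic eminence that vascular and meningeal cells also express, was 0.27 above LD in CE and 0.28 above it in L-RUN, with 0.07 in RUN and -0.02 in H-RUN. Tac1, the precursor of substance P, differed from LD by 0.28 in L-RUN and -0.09 in H-RUN, the widest separation of the running pools on the list (0.36). Sox6, a factor that acts after Lhx6 in cells of the medial ganglionic eminence, differed from LD by -0.19 in H-RUN, -0.22 in RUN and -0.28 in L-RUN, and its longest transcript of 8668 bases is in the top decile of length. With the length trend removed, Sox6 was at -0.14 in H-RUN, -0.13 in RUN and -0.17 in L-RUN. Erbb4, a neuregulin receptor of parvalbumin cells, differed from LD by 0.11 in CE and -0.24 in L-RUN, and its longest transcript has 12037 bases. For Erbb4 the values with the trend removed were 0.19 in CE and -0.10 in L-RUN.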
